A study of Danio rerio with 8 samples.

Results

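The 5 zebrafish genes described here encode miR-216a, miR-216b, miR-217 and miR-375, the miRNAs best known from the pancreas. They were taken from the deposited count table by name, as the rows whose symbol starts with dre-mir-216, dre-mir-217 or dre-mir-375, and they are 5 of the 434 miRNA genes and of the 32520 genes listed. The exocrine set holds 3 members: dre-mir-216a (ENSDARG00000081608), dre-mir-216b (ENSDARG00000083359) and dre-mir-217 (ENSDARG00000083272). The endocrine set holds the gene pair dre-mir-375-1 (ENSDARG00000081499) and dre-mir-375-2 (ENSDARG00000080708). Small RNA libraries were made from whole wild-type (AB strain) larvae at 7 days postfertilization (dpf), each library from a pool of 50 larvae of 1 crossing. The 4 control libraries (S-) came from undisturbed males, and the 4 S+ libraries came from males that had gone through 21 days of chronic stress. All mothers were undisturbed control females, and no larva was stressed itself. The comparison asks whether stress of the father before mating changed the small RNAs of the unexposed progeny.

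The vertebrate pancreas has an exocrine part, whose acinar cells make and release digestive enzymes, and an endocrine part, whose islet cells release insulin, glucagon and other hormones. MiR-216a, miR-216b and miR-217 are encoded side by side and are characteristic of acinar cells. MiR-375 is abundant in islet cells, where it restrains insulin release in the mouse, and it is required for normal islet formation in the zebrafish embryo; it is also made in other endocrine cells such as those of the pituitary. A miRNA is cut from a hairpin transcript and pairs with target mRNAs mainly through its seed, the bases near its 5′ end.

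The RefSeq annotation of assembly GRCz12tu, which is not the build used for counting, places the exocrine genes next to each other on 1 chromosome. Their order is mir217-1 (its name there for dre-mir-217), dre-mir-216a and dre-mir-216b, with no other annotated gene starting between them. All 3 lie within the span of the protein-coding gene si:dkeyp-34c12.1, and the next protein-coding gene is tp53bp2b. The miR-375 genes lie on different chromosomes. The nearest protein-coding gene before dre-mir-375-1 is cryba2a and that before dre-mir-375-2 is cryba2b, lens crystallin genes that carry paired names, and each miR-375 gene lies within the span of an annotated long noncoding RNA. Dre-mir-375-1 also lies within the span of the protein-coding gene tmem198ab. Because 2 genes carry the miR-375 name, the authors' counting could have divided reads between them, so the split between the copies is less certain than their sum.

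The libraries held 3492945 to 4943297 counts, of which miRNA genes took 96.2% to 97.9%. The 5 members together took 5.07% to 6.80% of all counts in the S- libraries and 5.94% to 8.25% in the S+ libraries. All 5 members passed the filter on low counts and were tested. Values are given as CPM, counts scaled to a common library size with TMM factors, which correct for unequal composition of the libraries. The factors ran from 0.846 in S+ 2 to 1.17 in S+ 3. In whole larvae, fewer pancreatic cells and less of a miRNA per cell cannot be told apart.

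Nearly all of the signal came from a single gene. Dre-mir-216b was the second most abundant miRNA gene of the table by mean count, ranking between 1 and 3 in every library, and held 4.95% to 8.15% of all counts. The 95% Wilson intervals of these shares were narrow, at 4.92% to 4.97% in the lowest library and 8.13% to 8.17% in the highest; intervals of this kind cover counting error only. It made up 98.6% to 99.4% of the exocrine counts. The other members ranked between 119 and 213 among the miRNA genes.

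To set levels of different genes beside each other, CPM were divided by the annotated hairpin length, from 77 bases for dre-mir-216b to 98 for dre-mir-217, and given per 100 bases. On this scale of levels dre-mir-216b had a mean of 84118 over the 8 libraries, with a range of 59042 to 125165. Dre-mir-217 followed with 472 (range 412 to 630), dre-mir-375-1 with 392 (range 318 to 535), dre-mir-216a with 277 (range 148 to 427) and dre-mir-375-2 with 141 (range 82.4 to 211). Dre-mir-216b was above dre-mir-217 in all 8 libraries, by 7.45 ± 0.42 on the log2 scale (SD, n = 8). Each of the other neighbours in this order stood in that order in 7 of the 8 libraries. The log2 difference between dre-mir-217 and dre-mir-375-1 was 0.27 ± 0.34 (SD, n = 8) on this scale. That between dre-mir-375-1 and dre-mir-216a was 0.55 ± 0.63 (SD, n = 8), and both were smaller than their spread. Dre-mir-216a exceeded dre-mir-375-2 by 0.97 ± 0.74 (SD, n = 8) on the same scale. The division matters for close genes, since reads of a miRNA need not grow with the length of its hairpin. In undivided CPM dre-mir-217 stood further above dre-mir-375-1, with means of 493 against 293 in S- and 432 against 335 in S+. On the divided scale the lesser exocrine miRNAs lay near the endocrine miR-375 genes in level, and dre-mir-216b alone stood apart.

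**Figure D1:**
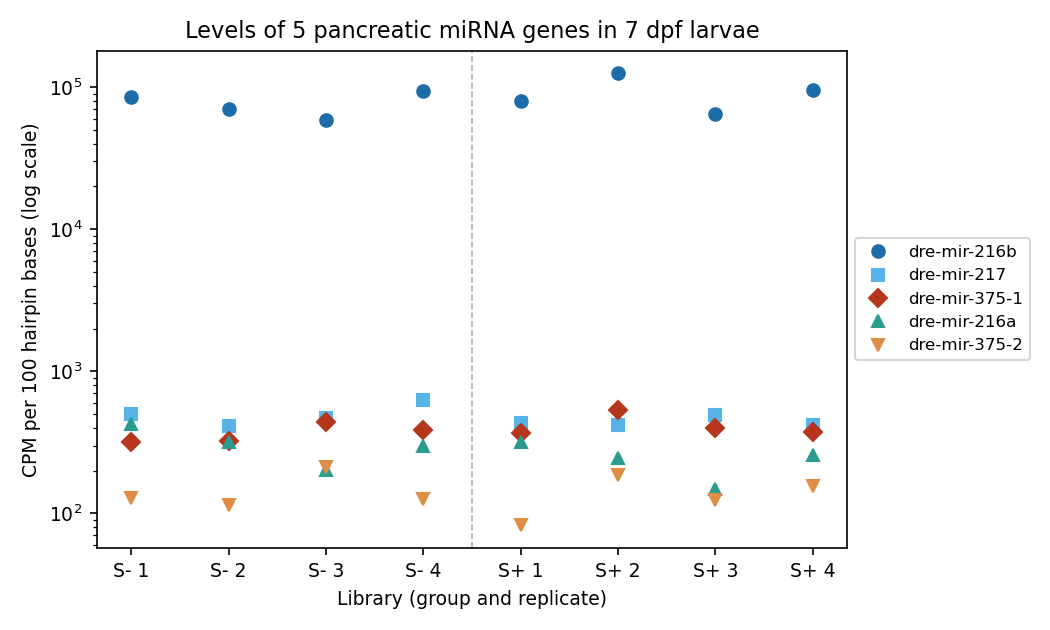
Level of each of the 5 genes in each library, as CPM per 100 bases of hairpin on a log axis; each point is 1 library, S- on the left and S+ on the right of the dashed line. Dre-mir-216b lies between 59042 and 125165, and the other 4 genes lie between 82.4 and 630 in all libraries.

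No difference between S+ and S- larvae larger than the spread between libraries was detected for any of the 5 miRNA genes. Of the 651 genes tested with limma after the voom transformation, 2 (0.307%) passed a Benjamini-Hochberg adjusted p below 0.05 with an absolute log2 fold change above 0.58, and 0 of the 5 members did. None of the members had an unadjusted p below 0.05 either, against 81 of the 651 genes. EdgeR's quasi-likelihood test called 2 of the 651 genes and DESeq2 called 30 of them, and each called 0 members. The fitted log2 fold change was above 0 for 2 members and below 0 for 3, with a median of -0.095 against -0.023 over all genes tested. For all 5 members the S+ and S- values overlapped, and how many of all genes tested did so was not counted.

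Dre-mir-216b, the most abundant member, had 65797, 53674, 45462 and 71856 CPM in S- replicates 1 to 4. In S+ replicates 1 to 4 it had 61600, 96377, 49856 and 73546 CPM. Library S+ 2 was the highest of all and S- 3 the lowest, while S+ 1 and S+ 3 lay within the S- range. The S- mean was 59197 ± 11874 CPM (SD, n = 4) and the S+ mean was 70345 ± 19868 CPM (SD, n = 4). On the log2 scale S+ was 0.23 above S- (SE 0.22, 95% interval -0.25 to 0.71, limma adjusted p = 0.692), which leaves room for anything from a 0.840-fold to a 1.64-fold level in S+. An exact permutation test of the log2 CPM values, two-sided, gave p = 0.400, where the smallest p that 4 libraries against 4 allow is 0.0286. The log2 difference was 0.053 without S+ 2, 0.11 without S- 3 and 0.37 without S+ 3.

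Dre-mir-216a, its neighbour in the cluster, had 380, 282, 181 and 264 CPM in S- replicates 1 to 4 and 281, 219, 132 and 231 CPM in S+ replicates 1 to 4. The lowest value was that of S+ 3 and the highest that of S- 1. The S- mean was 277 ± 81.7 CPM (SD, n = 4) and the S+ mean was 215.7 ± 62.1 CPM (SD, n = 4). The fitted log2 difference was -0.37 (SE 0.28, 95% interval -0.99 to 0.24, limma adjusted p = 0.581; exact permutation p = 0.314). This was the lowest p of the 5 members in the limma test, at 0.207 before adjustment. Without S+ 3 the log2 difference was -0.15, without S- 1 it was -0.21, and without S- 3 it was -0.56.

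Dre-mir-217, also of this cluster, had 491, 403, 459 and 617 CPM in S- replicates 1 to 4 and 421, 408, 486 and 413 CPM in S+ replicates 1 to 4. The S+ libraries lay close together except S+ 3, and S- 4 was the highest of all. The S- mean was 493 ± 90.5 CPM (SD, n = 4) and the S+ mean was 432 ± 36.6 CPM (SD, n = 4). The fitted log2 difference was -0.17 (SE 0.15, 95% interval -0.51 to 0.17, limma adjusted p = 0.675; exact permutation p = 0.314). It was -0.064 without S- 4 and -0.28 without S- 2.

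Dre-mir-375-1, the more abundant miR-375 gene, had 254, 258, 350 and 308 CPM in S- replicates 1 to 4 and 294, 428, 320 and 300 CPM in S+ replicates 1 to 4. Of the S+ values, 3 lay inside the S- range, and S+ 2 lay above it. The S- mean was 293 ± 45.8 CPM (SD, n = 4) and the S+ mean was 335 ± 62.8 CPM (SD, n = 4). The fitted log2 difference was 0.19 (SE 0.17, 95% interval -0.19 to 0.58, limma adjusted p = 0.675; exact permutation p = 0.314). It was 0.062 without S+ 2 and 0.12 without S- 2.

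Dre-mir-375-2 was the lowest member, with 278 to 690 counts per library. It had 106, 94.9, 175 and 103.96 CPM in S- replicates 1 to 4 and 68.4, 155, 103.7 and 129 CPM in S+ replicates 1 to 4. Library S- 3 stood above all others and S+ 1 below all others. The S- mean was 119.9 ± 37.0 CPM (SD, n = 4) and the S+ mean was 114 ± 37.1 CPM (SD, n = 4). The fitted log2 difference was -0.095 (SE 0.28, 95% interval -0.73 to 0.54, limma adjusted p = 0.899; exact permutation p = 0.800), and its sign rested on single libraries: it was 0.11 without S- 3 and 0.12 without S+ 1.

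Numbered copies under the same dre-mir or dre-let name were also summed before the fit, while copies under other names, such as mir1-1, stayed separate. The S- mean of summed miR-375 was 413 ± 84.9 CPM (SD, n = 4) and its S+ mean was 449 ± 88.1 CPM (SD, n = 4). The log2 difference was 0.12 (SE 0.19, 95% interval -0.30 to 0.55, limma adjusted p = 0.810 over 592 rows), and without S+ 2 it was -0.039. The share of dre-mir-375-1 in the miR-375 counts ran from 66.7% in S- 3 to 81.1% in S+ 1.

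**Figure D2:**
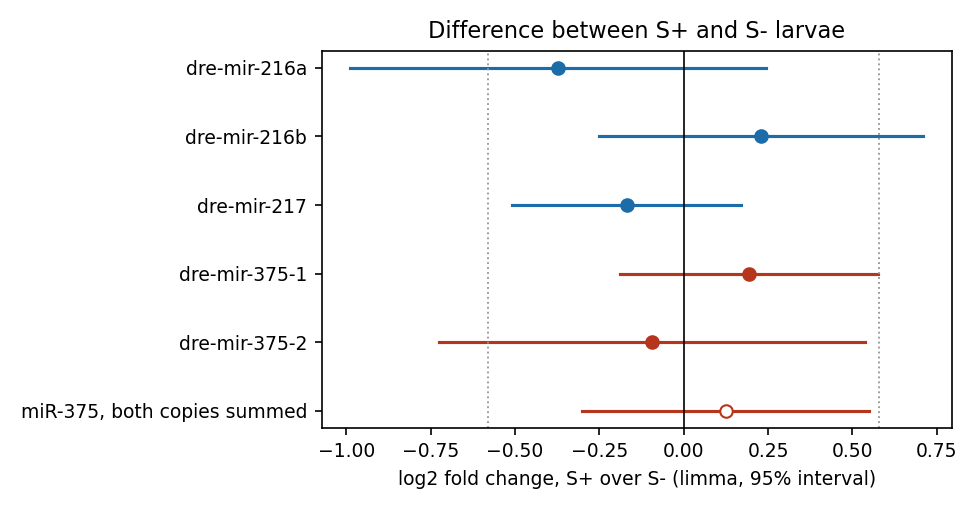
Log2 fold change of S+ over S- larvae for each gene, with points for the limma estimate and lines for its 95% interval; blue marks exocrine and red endocrine miRNAs, the open circle is miR-375 with both copies summed, and dotted lines mark 0.58 in either direction. Every interval spans 0, and the estimates run from -0.37 for dre-mir-216a to 0.23 for dre-mir-216b.

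The exocrine and the endocrine miRNAs were then set against each other within each library, where no normalization enters. The log2 ratio of summed exocrine counts to summed miR-375 counts, which is not scaled for length, was 7.53, 7.27, 6.46 and 7.46 in S- replicates 1 to 4 and 7.43, 7.38, 6.90 and 7.44 in S+ replicates 1 to 4. The ratio was lowest in replicate 3 of either group, and the groups overlapped. The means were 7.18 ± 0.50 among S- libraries and 7.28 ± 0.26 among S+ libraries (SD, n = 4 each), so that the difference of 0.10 was smaller than the spread. Without S- 3 it was -0.14. No test was made of ratios, since they are scores over members chosen with results of these data known.

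This ratio is almost wholly that of dre-mir-216b to miR-375, and the direction turned where that gene was left out. With dre-mir-216a and dre-mir-217 over miR-375, the mean log2 ratio was 0.90 ± 0.43 among S- libraries and 0.55 ± 0.35 among S+ libraries (SD, n = 4 each), a difference of -0.36. With dre-mir-217 alone over miR-375 it was 0.26 ± 0.34 (SD, n = 4) and -0.038 ± 0.34 (SD, n = 4), a difference of -0.30. All of these ratios overlapped between the groups.

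The 3 exocrine genes, whose hairpins are adjacent in the annotation, did not keep a fixed proportion to one another. Whether they come from 1 transcript was not tested. Per hairpin length, dre-mir-216b exceeded dre-mir-216a by 200-, 220-, 290- and 315-fold in S- replicates 1 to 4 and by 253-, 509-, 436- and 369-fold in S+ replicates 1 to 4. Of the S+ libraries, 3 lay above the whole S- range and S+ 1 lay inside it. On the log2 scale the mean was 7.98 ± 0.31 among S- libraries and 8.57 ± 0.43 among S+ libraries (SD, n = 4 each), a difference of 0.59.

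Dre-mir-216b exceeded dre-mir-217 by 170-, 169-, 126- and 148-fold in S- replicates 1 to 4 and by 186-, 301-, 131- and 227-fold in S+ replicates 1 to 4, again per hairpin length. The groups overlapped, with S+ 3 inside the S- range. The log2 means were 7.25 ± 0.21 among S- libraries and 7.66 ± 0.51 among S+ libraries (SD, n = 4 each). Dre-mir-375-1 exceeded dre-mir-375-2 by 2.08- to 3.08-fold in S- and by 2.42- to 4.45-fold in S+.

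**Figure D3:**
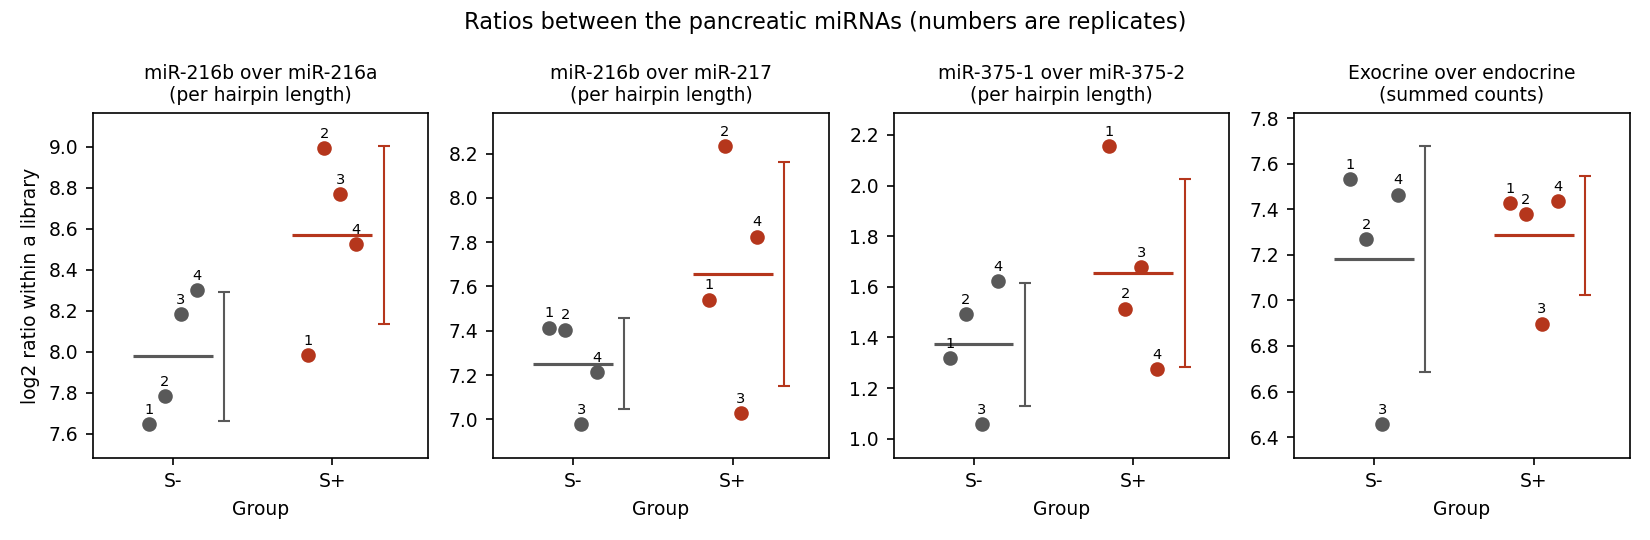
Log2 ratios within each library, with S- in grey and S+ in red; points are libraries numbered by replicate, horizontal lines are group means and bars are 1 SD (n = 4), and each panel has its own vertical scale that does not start at 0. For miR-216b over miR-216a, 3 of the 4 S+ libraries lie above the S- range, and in the last panel replicate 3 is the lowest of either group.

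The members also varied to different degrees among libraries of one group. The within-group SD of log2 CPM was 0.20 for dre-mir-217, 0.24 for dre-mir-375-1, 0.35 for dre-mir-216b, 0.45 for dre-mir-216a and 0.45 for dre-mir-375-2, against a median of 0.23 over the 271 miRNA genes tested. Dre-mir-216a and dre-mir-375-2 stood at the 85.2 and 86.0 percentiles of these genes, and dre-mir-217 at the 37.3 percentile. Counting error was small beside this spread. From the mean counts it amounted to 0.197% of the level for dre-mir-216b and at most 4.61% for the other members, while the coefficient of variation of CPM ran from 15.7% to 30.8% in the S- libraries and from 8.47% (dre-mir-217) to 32.5% in the S+ libraries.

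For dre-mir-216b the spread moved with the scaling. Its CPM was highest in S+ 2, which had the lowest TMM factor, and second lowest in S+ 3, which had the highest factor. With library size alone the within-group SD of log2 CPM was 0.20 in place of 0.35, and with DESeq2's size factors it was 0.36. For dre-mir-217 the SD was 0.25 with library size alone, above that of dre-mir-216b, so the order of these members depended on the scaling. The part of the scaling in these spreads was not tested.

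Over the 8 libraries, the 2 miR-375 genes were the pair of members whose log2 CPM were most alike, with a Pearson's r of 0.64 (0.77 with the group means removed). The authors' counting could have divided reads between these copies, and its part in this likeness was not tested. The r of dre-mir-216b with dre-mir-216a was 0.35 (0.58 with the group means removed) and with dre-mir-217 it was -0.066 (0.11). That of dre-mir-216a with dre-mir-217 was 0.016 (-0.22), and dre-mir-216a and dre-mir-375-1 had an r of -0.56 (-0.47). By ranks, Spearman's rho was -0.88 for dre-mir-216a and dre-mir-375-1 and 0.57 for the miR-375 genes. These are descriptions only, since all members in a library share the depth and composition of that library.

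Among the 266 other miRNA genes tested, those whose log2 CPM followed the exocrine sum most closely over the 8 libraries were dre-mir-218a-2 (r = 0.94), dre-mir-218a-1 (r = 0.93) and ENSDARG00000083126 (r = 0.92), the most abundant miRNA gene, which the deposited table lists without a symbol and the gene name table pairs with MIR96; the median r was 0.27. The least alike was CR354430.1 (r = -0.78). All these CPM were scaled by the same TMM factors. The log2 CPM of dre-mir-216b, nearly all of the exocrine sum, had an r of -0.93 with the log2 factor. For its share in total counts, before that scaling, the r was -0.81. The part of the shared scaling in these likenesses was not tested. The endocrine sum was followed most closely by dre-mir-182 (r = 0.93), dre-mir-183 (r = 0.80) and dre-mir-22a (r = 0.79), with a median r of 0.13, and least by dre-mir-137-2 (r = -0.81). MiR-182 and miR-183, which form a cluster with miR-96, are known from sensory cells of the ear, the lateral line and the eye. Limma called none of these 8 genes between S+ and S-.

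Reads counted to mRNA genes in the same libraries are given beside the exocrine miRNAs. Which kit gave these libraries is unclear, since the methods name one for stranded mRNA and then treat the reads as small RNA, so the origin of the mRNA counts is not known. Of 32 listed acinar transcripts, 26 were found in the table, 21 had at least 1 count and 13 never exceeded 3 counts in a library. Their summed counts were 30, 183, 122 and 92 in S- replicates 1 to 4 and 25, 33, 102 and 139 in S+ replicates 1 to 4. Libraries S- 1, S+ 1 and S+ 2 were lowest, with 25 to 33 counts, and the groups overlapped. The methods name adaptors that carried unique molecular identifiers, but no deduplication of reads is described. The Poisson intervals drawn for these counts cover counting error only and not the spread between pools.

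The acinar transcripts with the most counts were those of secreted proteases. Prss59.2, a trypsin gene, had 13, 53, 31 and 20 counts in S- replicates 1 to 4 and 10, 8, 17 and 37 in S+ replicates 1 to 4. Prss1, also a trypsin gene, had 5, 26, 31 and 19 counts in S- and 1, 9, 29 and 34 in S+, and the chymotrypsinogen gene ctrb1 had 1, 10, 6 and 12 in S- and 1, 1, 7 and 17 in S+. The carboxypeptidase gene cpb1 ran the other way, with 0, 1, 3 and 6 counts in S- and 5, 7, 7 and 11 in S+. Of the listed transcripts only the trypsin pair passed the filter, with log2 differences of -0.97 for prss59.2 (SE 0.54, limma adjusted p = 0.494) and -0.80 for prss1 (SE 0.91, limma adjusted p = 0.743). The elastase gene cela1.6, which was not on the list and was looked up after the results had been seen, passed as well, at -0.86 (SE 0.50, limma adjusted p = 0.531). Ptf1a, a transcription factor gene on the acinar list, was at 0 in every library, as were bhlha15 and rbpjl of the same list.

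The acinar mRNA counts and dre-mir-216b did not rank the libraries alike. Pearson's r between the log2 CPM of the summed acinar mRNAs and of dre-mir-216b was -0.38. With the log2 TMM factor, the r was 0.41 for the acinar mRNAs and -0.93 for dre-mir-216b. The part of the scaling in the r of -0.38 was not tested. Whether the dre-mir-216b reads came from acinar cells was not tested. Dre-mir-216b took 8.15% of all counts in S+ 2, its highest library, where acinar mRNAs gave 33 counts. It took 6.26% in S- 1 and 6.23% in S+ 1, against 5.66% in S- 2, where the acinar mRNA counts were highest. Library S+ 4 was high in both, with 7.26% for dre-mir-216b and 139 acinar mRNA counts. Protein-coding genes as a whole held 0.505% to 1.05% of the counts, with the highest share in S- 2. The acinar share of the protein-coding counts ran from 0.0895% in S+ 1 to 0.572% in S+ 4. It was 0.516% in S- 4, where dre-mir-216b took 6.68% of all counts, 0.405% in S- 2 and 0.120% in S+ 2. The methods set a minimum RNA integrity number for the larval samples. RNA quality per library was not given in the sources used here, and its part in the mRNA counts was not tested.

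**Figure D4:**
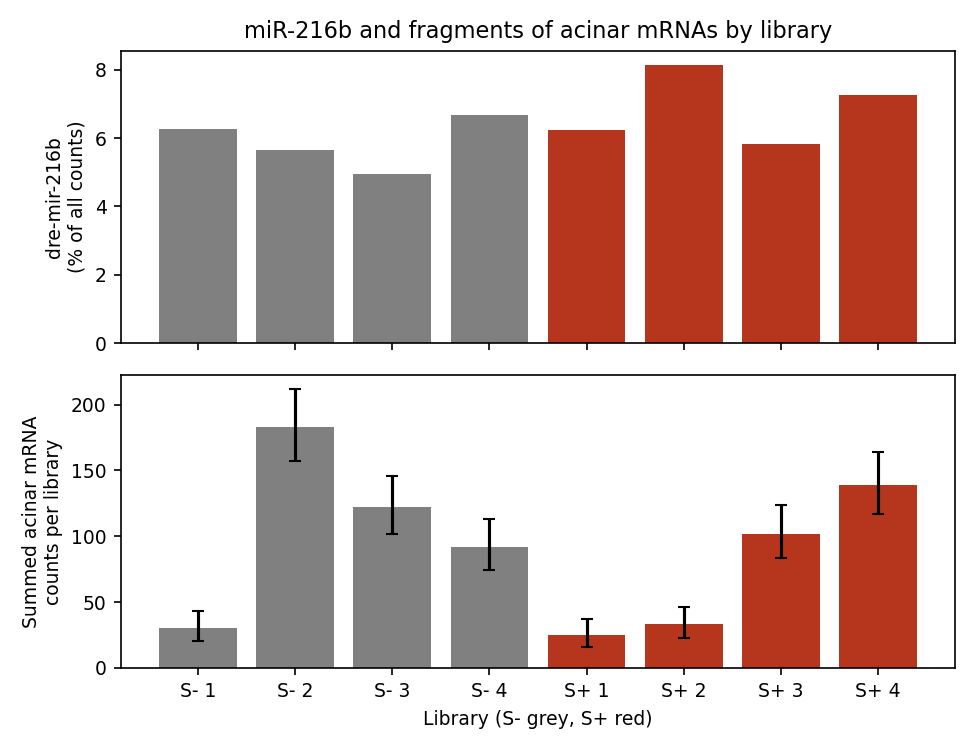
Share of dre-mir-216b in all counts (upper panel) and summed counts of 26 acinar mRNAs (lower panel, bars with 95% Poisson intervals for counting error) in each library, S- in grey and S+ in red. Library S+ 2 has the highest miR-216b share, 8.15%, and 33 acinar mRNA counts, against 25 to 183 over all libraries. Library S+ 4 is high in both, at 7.26% and 139 counts.

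Transcripts of the endocrine pancreas were close to absent from these small RNA libraries. All 21 listed endocrine genes were found, 12 had at least 1 count, 19 never exceeded 3 counts, and their sum ran from 4 to 14 counts per library. The genes above 3 counts were insm1a, with 1 to 8 counts per library, and pcsk1nl, with 0 to 5. Ins, which encodes insulin, had 1 count in S+ 4 and 0 elsewhere, as did the hormone gene gcga. The hormone genes insb, gcgb, sst1.1, sst1.2, sst2 and ghrl had 0 throughout, so nearly all of the sum came from genes that encode no hormone. Pdx1, which encodes a transcription factor of pancreas and islet development, also had 0 throughout. None passed the filter, so none was tested.

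Other miRNA genes of digestive organs and epithelia were tested for comparison, from a list of miR-122 (liver), miR-192 and miR-194 (gut epithelium), miR-148 and miR-7 (known from pancreas and islets, miR-7 also from brain) and the epithelial miR-141, miR-200 and miR-429. Of the 15 genes, limma called 0, with 4 below an unadjusted p of 0.05 (over all 651 genes tested these shares were 0.307% and 12.4%), and the fold change was above 0 for 4 and below 0 for 11, with a median of -0.099. The lowest p belonged to dre-mir-194a, at -0.44 on the log2 scale (SE 0.12, limma adjusted p = 0.164), and dre-mir-194b, with -0.46 (SE 0.13, limma adjusted p = 0.166). Dre-mir-148 differed by -0.073 on that scale (SE 0.16, limma adjusted p = 0.864). Of the 4 miR-7 genes, dre-mir-7a-3 had the lowest adjusted p, 0.203, with a log2 fold change of -0.41. The summed levels of these genes overlapped between the groups, at 130890 to 171126 CPM in S- and 126923 to 147686 CPM in S+. So did those of the muscle (miR-1, miR-133, miR-206), neural (miR-9, miR-124) and erythroid (miR-144, miR-451) genes. Of these limma called 0 of 6, 0 of 13 and 0 of 2, with 2, 3 and 0 below an unadjusted p of 0.05. The muscle set left out the miR-1 gene named mir1-1, which differed by 0.19 on the log2 scale (SE 0.22, limma adjusted p = 0.743).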

How the data were processed

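Small RNA libraries of 8 pools of 7 dpf larvae were analysed, 4 S- and 4 S+, grouped by their sample labels. The authors trimmed reads with Trim Galore 0.6.6, mapped them to GRCz11 with STAR 2.7.8a and quantified annotated genes with RSEM 1.3.0. They deposited estimated counts per gene, held as whole numbers and not normalized, so rounding changed no value. RSEM can divide reads among near-identical copies, and no deduplication is described.

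From these counts, S+ was compared with S- using limma 3.58.1 after voom in R 4.3.3, the study's own test. TMM factors and filterByExpr (minimum count 10) came from edgeR 4.0.16. P values were adjusted over all 651 genes tested. Permutation tests were exact and two-sided over 70 splits, using log2 CPM (prior count 2). Replicates came from separate crossings. The fit was tested on simulated counts in which the changes made were larger than any fitted for a member. That test does not show the power to detect differences of the members' size. Alternatives covered test (with DESeq2 1.42.0), normalization, filter, genes tested, summed copies, the replicate block and each library left out. Named genes are all members, the miRNA genes most and least like their sums (chosen by Pearson's r), and marker lists. The members and lists were chosen with earlier results of these data known. Hairpin lengths and neighbours are from RefSeq.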

Additional observations from a re-analysis of the deposited data

Results flagged for a closer look

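In 40 sets of 4 libraries of 1 group (member levels, ratios and marker sums), 4 held a library whose gap to its nearest neighbour exceeded the 95% limit of Dixon's test; chance gives about 5% of sets, and the ratios share libraries and genes. Dre-mir-375-2 had 175 CPM in S- 3, against 94.9 to 106 in the other S- libraries. Dre-mir-217 had 486 CPM in S+ 3, against 408 to 421 in the other S+ libraries. The log2 ratio of exocrine to miR-375 counts was 6.90 in S+ 3, against 7.38 to 7.44 in the other S+ libraries, and the same ratio with miR-216 alone was 6.88 against 7.37 to 7.43.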

How the results depend on the processing

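No member was called under any alternative run, and each library left out in turn gave 0 to 0 called members. Of 136 fold changes of members and summed copies under the alternatives, 133 kept their sign and 3 turned, all on leaving out 1 library: dre-mir-375-2 to 0.11 without S- 3 and 0.12 without S+ 1, and summed miR-375 to -0.039 without S+ 2. Over the 8 such fits the former ran from -0.27 to 0.12 and the latter from -0.039 to 0.22. The log2 ratio of exocrine to endocrine counts differed by 0.10 between the groups, with -0.14 to 0.23 as the range on leaving out single libraries. The difference was -0.30 with miR-217 only over miR-375 and -0.36 without dre-mir-216b, so its sign depended on that gene. With the replicate block 0 members were called, and 9 genes in all against 2 without it; dre-mir-216a then had an unadjusted p of 0.0310 (limma adjusted p = 0.273). Without a filter on low counts dre-mir-216b had an unadjusted p of 0.00313 (limma adjusted p = 0.272). Same-numbered libraries come from different crossings, and the correlations of their deviations from the group means were 0.16, -0.16, 0.25 and 0.029. Over all genes, DESeq2 called 30 of 651, miRNA genes only 7 of 271 and no filter 79 of 18338. Library size only called 1 of 651 and DESeq2 size factors 0 of 651. Leaving out 1 library gave 0 to 3. For none of these changes was the cause tested. The 95% intervals of dre-mir-216a, dre-mir-216b and dre-mir-375-2 reach past 0.58 on one side, so a difference of that size is not excluded for them.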
